A study of Homo sapiens with 12 samples.

Results

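The enzymes described here make sulfate available, build heparan sulfate chains and place sulfate on sugars and proteins. They are 9 genes, PAPSS1, PAPSS2, TPST1, TPST2, EXT1, EXT2, NDST1, HS2ST1 and CHST3, read by every probe set whose only gene symbol in the array annotation is one of them. That gave 18 of the 22215 probe sets that are not controls, and 15 of the 18 passed a signal filter that dropped the dimmest 40% of the array. The genes were chosen with the construct differences and 4-OHT changes of these same arrays in view. Their values are therefore given as a description, without p-values, and the counts of members below are read against all probe sets and support nothing by themselves.

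The samples were RD cells, a line from an embryonal rhabdomyosarcoma, a tumour with features of skeletal muscle. Cells labelled PAX3-FKHR-ER carried PAX3-FKHR, the fusion transcription factor of the alveolar form of the tumour, fused in turn to a hormone-binding domain of the estrogen receptor that was altered to answer to tamoxifen. These were cultured with 30 nM 4-hydroxytamoxifen (4-OHT) for 24 h, or without it. Cells labelled pK1 carried the vector alone and were likewise cultured with 30 nM 4-OHT for 24 h, or without it, so that both constructs and both treatments share the RD background and the transduction. Each of the 4 groups had 3 samples, and each sample was read on its own Affymetrix U133A array as a probe set signal on a linear scale. The labels do not give the promoter of the vector. Per the design text 3 populations were made per construct. Nothing in the labels ties a replicate number to one of them, so p-values measure only the spread between these samples, which may be technical.

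The 4 arrays of replicate 1 stood apart from the other 8. Control transcripts with poly-A tails are added to a sample as a check on labelling. The median signal over their 27 probe sets was 2.33 to 6.17 on those 4 arrays and 92.8 to 251 on the others, and the Pearson r of log2 signals between the 2 sets was 0.815 to 0.869. FOXO1, the FKHR part of the fusion, read 138, 78.3 and 83.9 in cells labelled PAX3-FKHR-ER with 4-OHT (replicates 1, 2 and 3) and 142, 146 and 124 without it, against 121, 42.4 and 46 in cells labelled pK1 with 4-OHT and 214, 52.1 and 36.1 without it. Replicates 2 and 3 had more of it under the fusion label, and replicate 1 without 4-OHT had less. PAX3 read 58.9, 92.7 and 73.1 in cells labelled PAX3-FKHR-ER with 4-OHT and 17.6, 98.9 and 105 without it, against 57.8, 41.5 and 50 in cells labelled pK1 with 4-OHT and 49.4, 41.5 and 30.6 without it, and showed the same reversal in replicate 1 without 4-OHT. FGFR4, a receptor gene known as a target of the fusion, read 575, 395 and 347 in cells labelled PAX3-FKHR-ER with 4-OHT and 509, 479 and 483 without it, against 626, 114 and 198 in cells labelled pK1 with 4-OHT and 551, 89.8 and 190.5 without it. In replicate 1 it was thus lower under the fusion label with and without 4-OHT, and in replicates 2 and 3 higher with and without it. Each of these genes is given by its brightest probe set. Whether those of FOXO1 and PAX3 read the construct or only the cells' own genes was not tested. Every direction below that uses replicate 1 thus rests on its labels, and values over replicates 2 and 3 stand beside those over all 3. Of 6 muscle lineage markers 5 passed the signal filter on these arrays, among them MYOD1 at 197 to 2098 and DES at 85.6 to 862, while MYF5 stayed between 0.814 and 15.5. The 3 epithelial markers summed to at most 29.5 on any array, and of 3 blood and endothelial markers PECAM1 passed the filter.

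Sulfation of sugars and proteins draws on a single activated donor, PAPS, which the bifunctional PAPS synthases PAPSS1 and PAPSS2 make from sulfate and ATP. In the Golgi, the EXT1 and EXT2 proteins form the polymerase that extends the heparan sulfate chain, NDST1 exchanges its acetyl groups for sulfate on glucosamine, and HS2ST1 adds sulfate at the 2-O position of the uronic acid. CHST3 places sulfate at the 6-O position of the galactosamine of chondroitin, and TPST1 and TPST2 sulfate tyrosines of secreted and membrane proteins, chemokine receptors among them. Heparan sulfate on the cell surface is known as a co-receptor for fibroblast growth factors, which act on muscle precursor cells.

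The RefSeq annotation (GRCh38.p14) places PAPSS1 at chr4:107613666-107720234, PAPSS2 at chr10:87659878-87747705, TPST1 at chr7:66198790-66360443 and TPST2 at chr22:26521996-26590132. Of the chain enzymes it places EXT2 at chr11:44095678-44251962, NDST1 at chr5:150497779-150558211, HS2ST1 at chr1:86914635-87109982 and CHST3 at chr10:71964395-72013558. Promoter windows from RefSeq (GRCh38.p14, 250 bases before to 50 bases after a transcription start) were matched by symbol for 7 of the 9 genes, in 12 windows; EXT1 and PAPSS2 had no entry. The windows at the outermost starts of CHST3, HS2ST1, EXT2 and TPST2 are shown, as the members whose groups separated in a comparison below. They lie at chr10:71964145-71964444 on the plus strand for CHST3, at chr1:86914385-86914684 on the plus strand for HS2ST1, at chr11:44095428-44095727 on the plus strand for EXT2 and at chr22:26590083-26590382 on the minus strand for TPST2. Each holds promoter and first transcribed bases. Capitals mark the motifs GGGCGG, the GC box, and GTCACG, a core of sites bound by the paired domain of PAX proteins, on either strand, and CAGCTG, an E-box, was searched too.
CHST3: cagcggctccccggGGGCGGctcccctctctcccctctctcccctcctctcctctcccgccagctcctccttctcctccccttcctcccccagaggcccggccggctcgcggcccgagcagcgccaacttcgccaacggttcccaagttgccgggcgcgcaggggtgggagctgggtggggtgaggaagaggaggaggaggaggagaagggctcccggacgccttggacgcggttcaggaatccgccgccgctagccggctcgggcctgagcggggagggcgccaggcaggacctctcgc
HS2ST1: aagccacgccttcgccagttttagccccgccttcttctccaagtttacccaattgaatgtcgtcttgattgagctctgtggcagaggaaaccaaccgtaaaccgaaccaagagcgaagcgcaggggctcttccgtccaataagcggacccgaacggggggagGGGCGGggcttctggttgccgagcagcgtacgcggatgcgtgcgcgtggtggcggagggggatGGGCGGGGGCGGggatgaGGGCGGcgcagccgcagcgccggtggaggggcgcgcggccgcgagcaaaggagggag
EXT2: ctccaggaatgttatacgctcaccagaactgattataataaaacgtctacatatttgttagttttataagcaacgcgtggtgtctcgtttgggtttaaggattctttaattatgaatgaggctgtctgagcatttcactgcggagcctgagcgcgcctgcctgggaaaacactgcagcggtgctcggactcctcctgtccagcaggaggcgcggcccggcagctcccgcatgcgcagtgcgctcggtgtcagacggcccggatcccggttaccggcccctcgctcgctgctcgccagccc
TPST2: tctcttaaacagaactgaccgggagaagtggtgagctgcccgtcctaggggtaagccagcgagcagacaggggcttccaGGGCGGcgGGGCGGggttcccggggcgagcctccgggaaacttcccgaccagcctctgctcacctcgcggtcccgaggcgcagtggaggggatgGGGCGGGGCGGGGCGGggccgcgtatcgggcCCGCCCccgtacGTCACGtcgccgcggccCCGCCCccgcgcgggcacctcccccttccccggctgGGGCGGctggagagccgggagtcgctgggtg
The GC box is in the windows of CHST3, HS2ST1 and TPST2 and absent from that of EXT2. On TPST2 it matched at 8 positions, some of which overlap, and 9 of all 12 member windows held it, where 45.0% of 35116 windows in the table did. GTCACG was in the TPST2 window shown and in the 2 windows at the inner starts of EXT2, which overlap nearly in full, against 9.02% of all windows. The E-box CAGCTG was found in the NDST1 window only among the 12, and in 17.9% of all windows. The homeodomain dimer motif, TAAT and ATTA with 2 or 3 bases between them, was in 0 of the 12 with either spacing, and in 0.45% and 0.365% of all windows. The GC content of the member windows was 56.3% to 77.0%, with a median of 58.7% over all windows. These matches describe letters in the windows and no binding was measured here.

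The constructs were compared to ask what carrying the fusion changes, first without 4-OHT. The signals of CHST3 and PAPSS2 were lower in PAX3-FKHR-ER cells than in pK1 cells, as was EXT2 on one probe set, and all 3 probe sets of HS2ST1 were higher. Of the 18 member probe sets, 6 were lower and 3 higher with no overlap between the groups of 3. Over all 22215 probe sets the shares without overlap were 3.67% lower and 2.97% higher, and since the genes were chosen on these values, nothing is read from that contrast. With replicate 1 left out 9 were lower and 4 higher without overlap, where 14.9% and 18.4% of all probe sets were. Probe sets of one gene read the same transcripts and are not independent. The median construct difference of the 18 was -0.31 on the log2(signal + 16) scale, against -0.01 over all 13329 probe sets past the filter. The amount of 16 added before the log understates differences of dim probe sets, and lower signal in a culture cannot be told apart from fewer cells that express the gene.

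**Figure D1:**
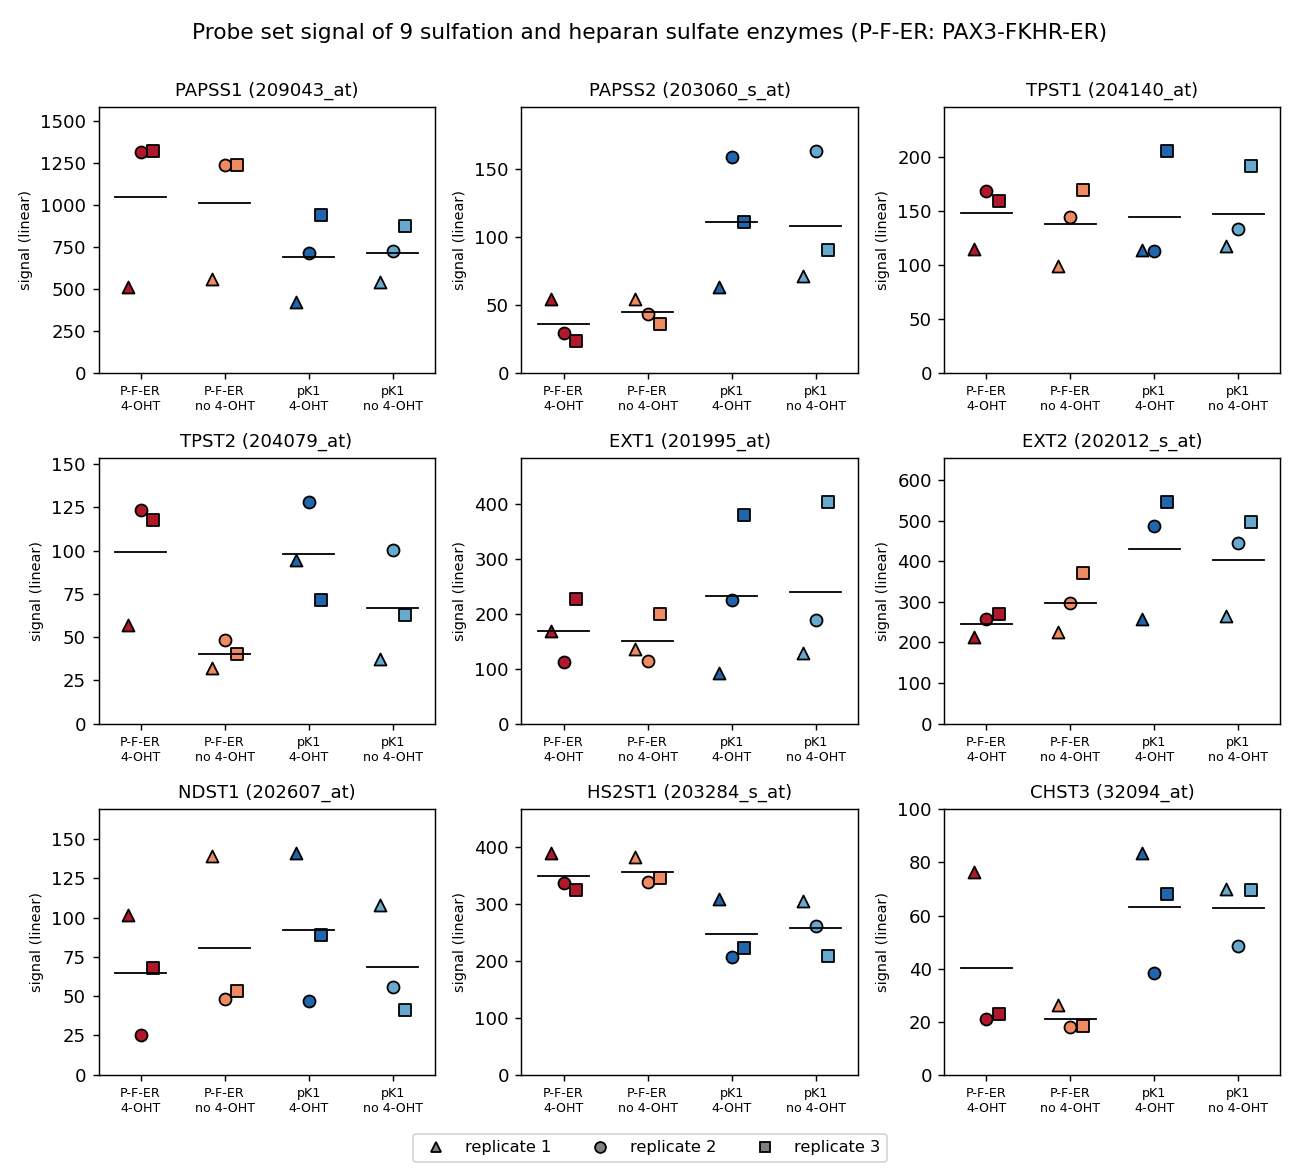
Probe set signal on a linear scale (vertical axis) of the probe set with the highest mean signal of each of the 9 genes, by group, with a marker for each replicate and a line at the group mean (n = 3). PAPSS2 and CHST3 lie lower and HS2ST1 higher in PAX3-FKHR-ER cells without 4-OHT than in pK1 cells without 4-OHT, and the replicate 1 points of PAPSS1 lie under the others in all 4 groups.

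The PAPS synthases had differences of opposite sign. PAPSS2 probe set 203060_s_at read 53.9, 43.4 and 35.7 in PAX3-FKHR-ER cells without 4-OHT (replicates in the same order here and below), against 71.1, 163 and 90.2 in pK1 cells without 4-OHT. All 3 arrays labelled PAX3-FKHR-ER lay under all 3 labelled pK1, by a log2 difference of -0.98 ± 0.36 SE, and the gap was narrow in replicate 1, as the differences by replicate were -0.32, -1.59 and -1.04. The other PAPSS2 probe sets also separated, 203059_s_at by -0.70 ± 0.23 SE and 203058_s_at by -0.81 ± 0.30 SE. Over replicates 2 and 3 the differences were -1.32, -0.74 and -1.12. PAPSS1, the other synthase, had 1 probe set, which read 559, 1238 and 1237 in PAX3-FKHR-ER cells and 539.8, 725 and 876 in pK1 cells without 4-OHT. Its groups overlapped only through replicate 1, where every array read lower than its counterparts in replicates 2 and 3. The PAPSS1 difference was 0.43 ± 0.44 SE over 3 replicates and 0.62 over replicates 2 and 3, so that in those replicates PAPSS1 read higher and PAPSS2 lower under the fusion label. With 1 array left out it ran between 0.24 (without the PAX3-FKHR-ER array of replicate 2, and close to that without its replicate 3 or without the pK1 array of replicate 1) and 0.81 (without the PAX3-FKHR-ER array of replicate 1).

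Among the enzymes of heparan sulfate, EXT2 read lower and the 2-O-sulfotransferase HS2ST1 higher. EXT2 probe set 202013_s_at read 70.5, 90.9 and 109 in PAX3-FKHR-ER cells without 4-OHT, against 117, 127 and 154 in pK1 cells without 4-OHT, a difference of -0.50 ± 0.25 SE with no overlap (-0.43 over replicates 2 and 3). The brighter EXT2 probe set, 202012_s_at, read 226, 298 and 370.4 against 266, 445 and 496, a difference of -0.39 ± 0.32 SE (-0.48 over replicates 2 and 3), and its groups overlapped, since the pK1 array of replicate 1 was low. The RefSeq annotation places EXT1 at chr8:117794490-118111826. Its probe set 201995_at read 135, 115 and 199.9 in PAX3-FKHR-ER cells and 129, 189.8 and 404 in pK1 cells. It was lower under the fusion label in replicates 2 and 3 but not in replicate 1, with differences of 0.06, -0.65 and -0.96, and the groups overlapped with or without replicate 1. Over all 3 replicates the EXT1 difference was -0.52 ± 0.49 SE, and -0.09 without the bright pK1 array of replicate 3 and -0.86 without that of replicate 1. The second EXT1 probe set, 214985_at, lay under the signal filter at 2.99 to 31.1 over the 12 arrays and gave a difference of the other sign, 0.26.

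HS2ST1 was the one gene of the 9 with every probe set higher without overlap. Its brightest probe set, 203284_s_at, read 383, 338 and 345 in PAX3-FKHR-ER cells without 4-OHT, against 305, 260.4 and 209 in pK1 cells without 4-OHT. Each replicate gave the same direction, with differences of 0.31, 0.36 and 0.69, and the mean was 0.45 ± 0.21 SE. The other HS2ST1 probe sets differed by 0.57 ± 0.25 SE (203283_s_at) and 0.50 ± 0.18 SE (203285_s_at). With replicate 1 left out, HS2ST1 differed by 0.52, 0.74 and 0.55. NDST1, whose product acts before HS2ST1 on the chain, read 139, 48.4 and 53.5 against 108, 55.6 and 41.4 on probe set 202607_at. These values overlapped and were higher on the arrays of replicate 1 in both groups, with a difference of 0.15 ± 0.49 SE (0.06 over replicates 2 and 3).

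CHST3 was lower on both probe sets past the filter. Probe set 209834_at had a mean of 37.6 over the 12 arrays and passed only through its pK1 arrays. Its means with and without 4-OHT were 13.3 and 12.5 under the fusion label and 67.2 and 57.5 in pK1 cells. Passing the filter is thus not separate from its construct difference and adds nothing to it. Probe set 209834_at read 16, 12.1 and 9.34 in PAX3-FKHR-ER cells without 4-OHT, against 64.9, 38.7 and 69 in pK1 cells without 4-OHT. The highest array labelled PAX3-FKHR-ER was dimmer than the lowest labelled pK1, and the difference was -1.35 ± 0.33 SE. Probe set 32094_at read 26.4, 18 and 18.2 against 69.9, 48.7 and 69.8, again without overlap, with a difference of -1.09 ± 0.36 SE. Replicate 1 went with the others, as the replicate differences were -1.34, -0.96 and -1.75 for 209834_at and -1.02, -0.93 and -1.33 for 32094_at. Without it the means were -1.35 and -1.13. The third CHST3 probe set, 208252_s_at, lay under the filter at 3.29 to 21.7 and did not separate the groups. Signals of 209834_at under the fusion label lay near or under the added 16, and the size of its difference moved with that amount: it was -2.10 with 1 added and -0.66 with 64 added. That of 32094_at was -1.55 with 1 added and -0.58 with 64 added.

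Of the tyrosine sulfotransferases, TPST2 read 32, 48.1 and 40.4 in PAX3-FKHR-ER cells without 4-OHT, against 37.6, 100.5 and 63 in pK1 cells without 4-OHT. Its difference was -0.50 ± 0.34 SE (-0.67 over replicates 2 and 3), and the groups overlapped through the low pK1 array of replicate 1. Without that array the TPST2 difference was -0.78, and without the pK1 array of replicate 2 it was -0.22. TPST1 read 99.1, 145 and 169 against 117, 133.2 and 192, a difference of -0.09 ± 0.29 SE with overlap.

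**Figure D2:**
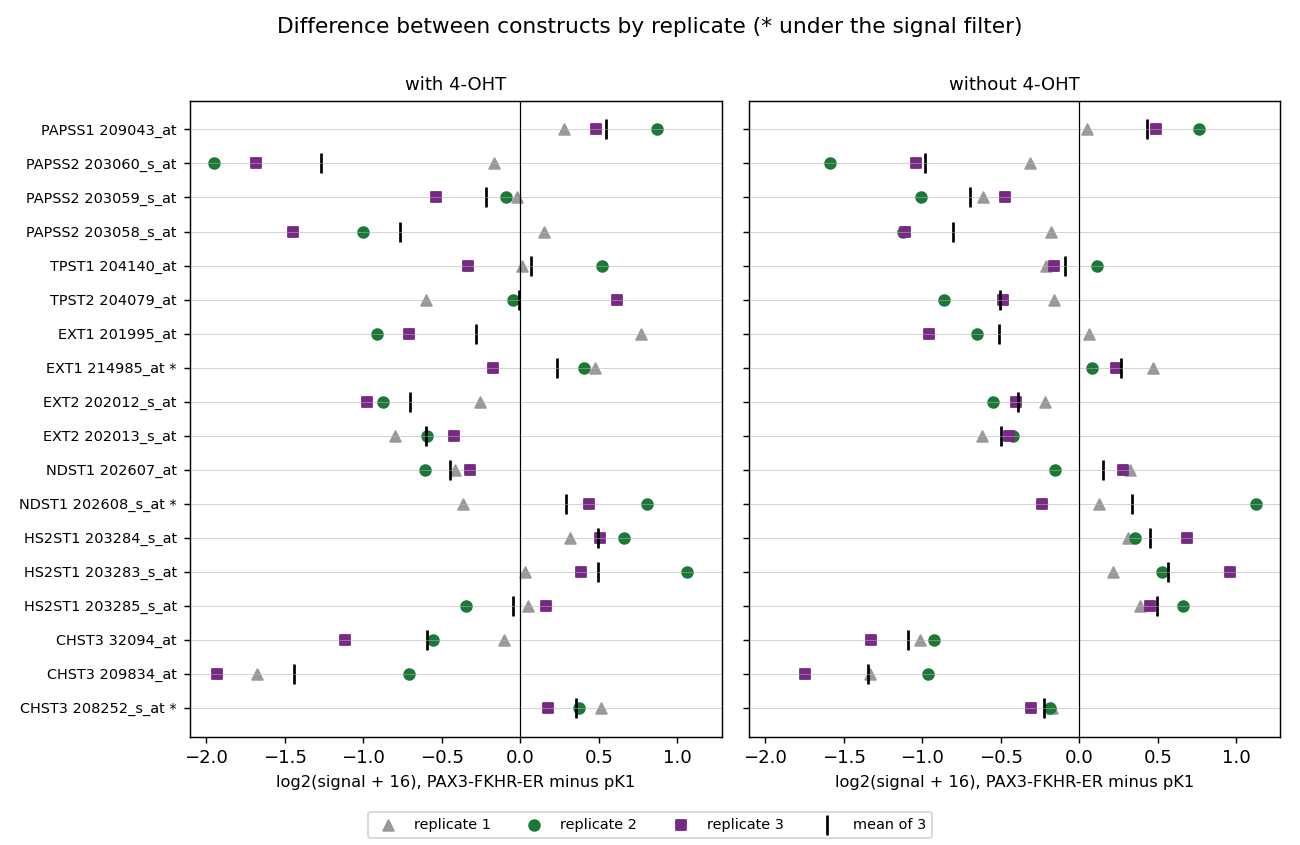
Difference in log2(signal + 16) between PAX3-FKHR-ER and pK1 cells (horizontal axis) for the 18 probe sets, with 4-OHT on the left and without on the right, with a point for each replicate and a bar at the mean of 3. CHST3 209834_at lies left of 0 in every replicate of both panels, at -1.44 ± 0.33 SE with and -1.35 ± 0.33 SE without 4-OHT, and HS2ST1 203284_s_at lies right of 0 in every replicate of both.

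With 4-OHT, the construct comparison rested on the other 6 arrays. Of the 18 member probe sets 2 were lower and 2 higher without overlap, where 2.47% and 4.35% of all probe sets were. Replicates 2 and 3 gave counts of 6 and 3, where 15.8% and 20.9% of all probe sets were. CHST3 probe set 209834_at read 17.2, 14.2 and 8.62 in PAX3-FKHR-ER cells with 4-OHT, against 90.1, 33.3 and 78.2 in pK1 cells with 4-OHT, a difference of -1.44 ± 0.33 SE without overlap (-1.32 over replicates 2 and 3). CHST3 probe set 32094_at read 76.4, 21 and 22.9 against 83.4, 38.5 and 68.2, and its groups overlapped because the PAX3-FKHR-ER array of replicate 1 was high. Without replicate 1 its difference was -0.84, against -0.59 ± 0.36 SE with it. It was -1.02 without that 1 array and -0.36 without the PAX3-FKHR-ER array of replicate 2. The 2 CHST3 probe sets past the filter thus disagreed on that array. The third, 208252_s_at, lay under the filter and had the other sign, with overlap. It read higher under the fusion label by 0.52, 0.38 and 0.17 in the 3 replicates, with a mean of 0.36.

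PAPSS2 was lower under the fusion label on 203060_s_at, at 54.1, 29.1 and 23.4 in PAX3-FKHR-ER cells with 4-OHT and 62.7, 159 and 111 in pK1 cells with 4-OHT. Its difference was -1.27 ± 0.36 SE, and -1.82 in replicates 2 and 3. The other PAPSS2 probe sets overlapped, with differences of -0.22 ± 0.23 SE (203059_s_at) and -0.77 ± 0.30 SE (203058_s_at). Over replicates 2 and 3 these were -0.32 with overlap and -1.23 without overlap. HS2ST1 probe set 203284_s_at read 389, 337 and 324 in PAX3-FKHR-ER cells with 4-OHT, against 309, 207 and 223 in pK1 cells with 4-OHT, a difference of 0.49 ± 0.21 SE without overlap (0.58 over replicates 2 and 3). HS2ST1 probe set 203283_s_at differed by 0.49 ± 0.25 SE without overlap, and by 0.25 without the pK1 array of replicate 2, but 203285_s_at overlapped at -0.05 ± 0.18 SE. EXT2 read lower in every replicate on both probe sets, with differences of -0.70 ± 0.32 SE and -0.60 ± 0.25 SE (-0.93 and -0.51 over replicates 2 and 3), and its groups overlapped when replicate 1 was included. PAPSS1 read 513, 1318 and 1320.4 in PAX3-FKHR-ER cells with 4-OHT and 422, 714 and 940.0 in pK1 cells with 4-OHT, higher under the fusion label in each replicate, though the groups of 3 overlapped. Its difference was 0.54 ± 0.44 SE (0.68 over replicates 2 and 3), and ran between 0.23 without the pK1 array and 0.99 without the PAX3-FKHR-ER array of replicate 1, with 0.32 without the PAX3-FKHR-ER array of replicate 2 or of replicate 3. NDST1 202607_at (-0.45 ± 0.49 SE), EXT1 201995_at (-0.28 ± 0.49 SE), TPST1 (0.07 ± 0.29 SE) and TPST2 (-0.01 ± 0.34 SE) overlapped. Over replicates 2 and 3 these differences were -0.47, -0.81, 0.09 and 0.28, also with overlap. EXT1 201995_at differed by 0.77, -0.92 and -0.71 by replicate, so that replicate 1 went against the others. The NDST1 value rested on single arrays, as it was -0.03 without the PAX3-FKHR-ER array of replicate 2, -0.13 without the pK1 array of replicate 1, -0.78 without the PAX3-FKHR-ER array of replicate 1 and -0.79 without the pK1 array of replicate 2. The second NDST1 probe set, 202608_s_at, lay under the filter and had the other sign (0.29).

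Muscle lineage markers varied over the same arrays, and their ranges overlapped between the constructs. The summed signal of the 6 markers was 2966 to 4638 in PAX3-FKHR-ER cells with 4-OHT and 2728 to 5211 without it. In pK1 cells it was 647 to 4384 with 4-OHT and 779 to 3381 without it. Whether this has a part in the construct differences of the sulfation enzymes was not tested.

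The change with 4-OHT in PAX3-FKHR-ER cells holds both activation of the fusion and any effect of 4-OHT itself. It was therefore read beside the change in pK1 cells. In PAX3-FKHR-ER cells TPST2 was the one member that read higher with 4-OHT on all 3 arrays than on any array without it. Its probe set read 56.8, 123 and 118 in PAX3-FKHR-ER cells with 4-OHT, against 32, 48.1 and 40.4 in PAX3-FKHR-ER cells without 4-OHT, a log2 change of 0.99 ± 0.34 SE. The change was positive in each replicate, at 0.60, 1.12 and 1.25. In pK1 cells TPST2 read 94.4, 128 and 71.5 with 4-OHT, against 37.6, 100.5 and 63 without it. It was higher with 4-OHT in all 3 pK1 pairs too, by 1.04, 0.30 and 0.15, though these groups overlapped. The pK1 mean of 0.50 ± 0.34 SE was 0.22 without pK1 without 4-OHT replicate 1, 0.78 without its replicate 2 and 0.32 without pK1 with 4-OHT replicate 2. The difference of the changes between constructs was 0.49 ± 0.48 SE over 3 replicates, with the pK1 pair ahead in replicate 1 and the PAX3-FKHR-ER pair ahead in replicates 2 and 3 (-0.44, 0.81 and 1.10). With 1 array left out it ran between 0.21 (pK1 without 4-OHT replicate 2) and 0.79 (PAX3-FKHR-ER with 4-OHT replicate 1).

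In replicates 2 and 3, fitted as pairs, TPST2 had a 4-OHT change of 1.18 ± 0.19 SE in PAX3-FKHR-ER cells. In pK1 cells it was 0.23 ± 0.19 SE. Both SE take the pairing by number as given. TPST2 was among the 186 probe sets that limma called for 4-OHT in PAX3-FKHR-ER cells in that paired fit (1.4% of those tested). It was 1 of 15 member probe sets past the filter. It was not called over 12 arrays, with or without the block, and since it was chosen on these changes nothing is read from the count. The arrays without 4-OHT enter this change and the construct comparison above with opposite signs, so the high TPST2 change with 4-OHT and its low reading against pK1 are not independent.

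HS2ST1 was the other member that separated, on 1 of its 3 probe sets. Probe set 203285_s_at read 79.3, 60.8 and 77.9 in PAX3-FKHR-ER cells with 4-OHT, against 99.4, 106 and 95.9 without it, a change of -0.40 ± 0.18 SE (-0.46 over replicates 2 and 3). In pK1 cells it read 76.3, 81.8 and 68 with and 72.5, 61.3 and 65.9 without 4-OHT, a change of 0.15 ± 0.18 SE with overlap. The brightest probe set of the gene did not follow, at -0.02 ± 0.21 SE in PAX3-FKHR-ER cells, and 203283_s_at was at -0.20 ± 0.25 SE with overlap.

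Counted together, 1 member probe set was higher and 1 lower with 4-OHT without overlap in PAX3-FKHR-ER cells, where 2.31% and 2.47% of all probe sets were. Replicates 2 and 3 gave counts of 4 and 6, against 12.8% and 16%. In pK1 cells 0 were higher and 0 lower, where 1.37% and 5.43% of all probe sets were, and in replicates 2 and 3 1 was higher and 1 lower, against 8.66% and 14.3%. The median 4-OHT change over the 18 was -0.001 in PAX3-FKHR-ER cells and -0.036 in pK1 cells, against -0.013 and -0.031 over all probe sets past the filter.

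**Figure D3:**
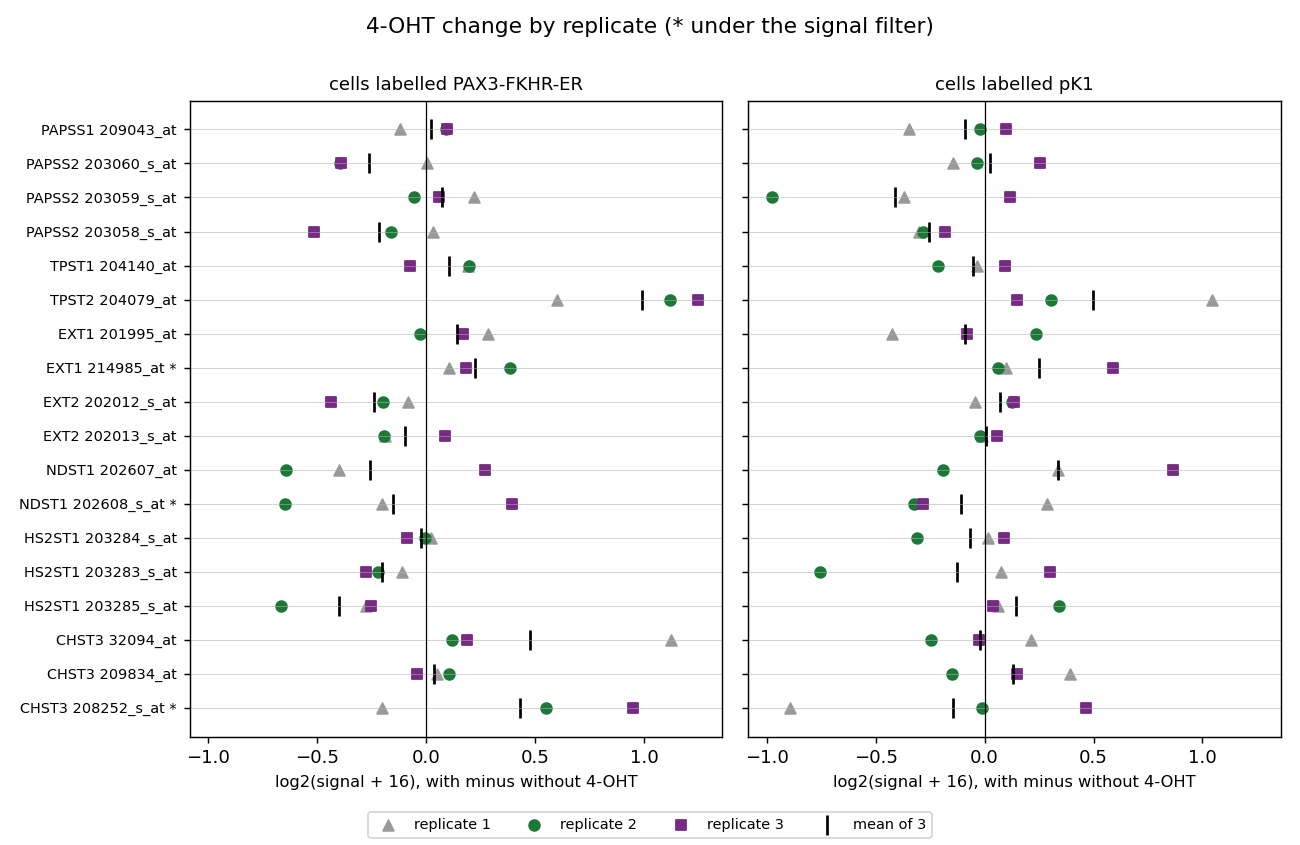
Change in log2(signal + 16) with 4-OHT minus without (horizontal axis) for the 18 probe sets in cells labelled PAX3-FKHR-ER (left) and pK1 (right), with a point for each replicate and a bar at the mean of 3. TPST2 lies right of 0 in all 3 replicates of both panels, at 0.99 ± 0.34 SE in PAX3-FKHR-ER and 0.50 ± 0.34 SE in pK1 cells, and 12 of the 18 probe sets in the left panel and 14 in the right have replicates on both sides of 0.

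For the other members the 4-OHT values overlapped. In PAX3-FKHR-ER cells PAPSS1 had a mean log2 change of 0.02 ± 0.44 SE and TPST1 of 0.10 ± 0.29 SE. EXT1 201995_at was at 0.14 ± 0.49 SE and NDST1 202607_at at -0.26 ± 0.49 SE. Over replicates 2 and 3 these changes were 0.09, 0.06, 0.07 and -0.19. Each SE is from the unpaired fit and includes the spread between replicates, so it can exceed the spread of the paired changes. By pair PAPSS1 changed by -0.12, 0.09 and 0.09. EXT2 202012_s_at read 212, 258 and 269.6 with 4-OHT, against 226, 298 and 370.4 without it. It was lower in each of 3 pairs but overlapping, with a change of -0.24 ± 0.32 SE. Its paired changes were -0.08, -0.20 and -0.44, with a mean of -0.32 over replicates 2 and 3. PAPSS2 203060_s_at and 203058_s_at read lower with 4-OHT in replicates 2 and 3 (-0.39 and -0.34) and near 0 in replicate 1. The third PAPSS2 probe set, 203059_s_at, did not follow, at 0.07 ± 0.23 SE. In pK1 cells 203058_s_at read lower with 4-OHT in all 3 pairs (-0.30, -0.28 and -0.18). There 203059_s_at was at -0.41 ± 0.23 SE and 203060_s_at at 0.02 ± 0.36 SE. In PAX3-FKHR-ER cells CHST3 32094_at had a mean change of 0.48 ± 0.36 SE that came mostly from replicate 1, where it was 1.12. Without that replicate it was 0.15, and 209834_at of the same gene was at 0.04 ± 0.33 SE.

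The difference of the 4-OHT changes between constructs had 2 member probe sets lower and 0 higher without overlap of the replicate changes, where 4.23% and 6.09% of all probe sets were. They were HS2ST1 203285_s_at (-0.54 ± 0.25 SE, and -0.65 over replicates 2 and 3) and EXT2 202012_s_at (-0.31 ± 0.45 SE, and -0.45). Over replicates 2 and 3 the counts were 3 and 3, against 19.1% and 18.3%.

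Some genes outside the 9 had array patterns close to those of CHST3 and TPST2. After centring each replicate's 4 arrays, the log2 signal of CHST3 32094_at had its highest Pearson r over the 12 arrays with OPTN (0.961), BCAS4 (0.954) and VAT1 (0.925). For TPST2 these were BSDC1 (0.928), QDPR (0.915) and RAB32 (0.902). Without centring, r was 0.181 for OPTN and -0.036 for RAB32. The values describe arrays that share constructs, treatment and replicate, and they are the highest of the many probe sets compared.

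The rest of the pathway was read from 97 other genes in 7 lists, from sulfate transport to lysosomal sulfatases. They hold 7 genes of sulfate and PAPS supply (1 tested), 6 of the linker (3), 17 of heparan sulfate synthesis and editing (6), 15 of chondroitin and dermatan sulfate synthesis (8), 19 other sulfotransferases (9), 21 core proteins (16) and 12 of sulfatases and degradation (9). Of all 97, 75 had a probe set with that symbol and 52 passed the signal filter. Limma was run on all 12 arrays with Benjamini-Hochberg adjustment over 13329 probe sets. In each of the 5 comparisons 0 of the 52 were called higher and 0 lower, as were 0 of all probe sets (0% called). Unadjusted p-values under 0.05 numbered 62 of 13329 for 4-OHT in PAX3-FKHR-ER cells, 72 in pK1 cells and 39 for the difference of these changes. They numbered 277 for the constructs without and 267 with 4-OHT. All 5 numbers lie under the share of 0.05 that would be met with no change at all. The 0 called in this unpaired fit therefore does not show that nothing changed. With replicate number as a block the 5 numbers were 894, 916, 634, 981 and 931 in the same order. The 0 members called in these fits is thus the background. In the unpaired fit of replicates 2 and 3, 0.0075% of probe sets were called between constructs without and 0.0975% with 4-OHT. As pairs, these replicates gave 0.0525% for the difference of the changes, 0.0075% for the constructs without and 0.158% with 4-OHT, and 0 member probe sets were called in any of these.

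Of the pathway genes 1 was called in replicates 2 and 3 fitted as pairs by number, a pairing that was not established. GPC1, a cell-surface core protein that carries heparan sulfate, fell with 4-OHT in PAX3-FKHR-ER cells of those replicates, where it read 165 and 192 with 4-OHT, against 341 and 415 without it. The log2 change was -1.02 ± 0.13 SE (limma adjusted p = 0.00892). In replicate 1 it read 407 with and 358 without 4-OHT, and over all 12 arrays the change was -0.62 ± 0.54 SE (limma adjusted p = 1). In pK1 cells of replicates 2 and 3 it read 126 and 514 with and 141 and 569 without 4-OHT. So 1 of 52 pathway genes was called there, where 1.4% of all probe sets were.

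The pathway genes nearest to the threshold differed by comparison, and each had an adjusted p of 1 in limma over 12 arrays. For 4-OHT in PAX3-FKHR-ER cells they were B4GALT7, which adds a galactose of the linker to which chains are attached (0.56), BCAN, the core protein brevican (0.44), and CHSY1, a chondroitin synthase (0.39), on the higher side. On the lower side they were IDUA, the lysosomal iduronidase (-0.53), CHST5 (-0.67) and CSGALNACT2 (-0.38). In the order named, these changes over replicates 2 and 3 were 0.66, 0.11, 0.50, -0.67, -0.67 and -0.55. B4GALT7 read 62.5, 54.4 and 57.3 with 4-OHT, against 44.6, 29.9 and 29.2 without it, with no overlap.

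Between constructs without 4-OHT, the smallest p on the lower side belonged to SULT1A1 (-0.91), B4GALT7 (-0.81) and CHST10 (-0.49), each without overlap. SULT1A1, a cytosolic sulfotransferase of small phenols, read 96.7, 83.2 and 50.3 in PAX3-FKHR-ER cells, against 137, 159.6 and 169 in pK1 cells, and its probe set may read its close paralogs too. On the higher side they were IDUA (0.43), EXTL3 (0.74) and CHSY1 (0.35), all overlapping. With 4-OHT, EXTL3, which starts heparan sulfate chains, read 350.1, 336 and 341 in PAX3-FKHR-ER cells, against 259, 30.4 and 137 in pK1 cells, a difference of 1.52 ± 0.53 SE without overlap (limma adjusted p = 1). The EXTL3 gap was widest in replicate 2, where the pK1 array read 30.4 with and 122 without 4-OHT. BCAN (0.84) and UST, a uronyl 2-O-sulfotransferase (0.76), followed. On the lower side were SGSH, the lysosomal sulfamidase (-0.68), HGSNAT, which acetylates heparan sulfate in the lysosome (-1.19), and GPC4, a glypican (-0.77). Over replicates 2 and 3 EXTL3, BCAN and UST differed by 2.07, 0.83 and 1.42, and SGSH, HGSNAT and GPC4 by -1.09, -1.77 and -1.03.

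In pK1 cells the pathway genes with the smallest p for 4-OHT were ARSA (0.42), CSGALNACT2 (0.20) and CHSY1 (0.24) on the higher side and ARSB (-0.41), SULT4A1 (-0.47) and CHST12 (-0.40) on the lower. For the difference of the changes they were B4GALT7 (0.69), BCAN (0.71) and CHST1 (0.44), and CSGALNACT2 (-0.58), IDUA (-0.57) and SDC3 (-0.80). By list, the median construct difference without 4-OHT lay between -0.20 and 0.19 in the 6 lists with over 1 gene tested, and was 0.02 over the 52 genes together.

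**Figure D4:**
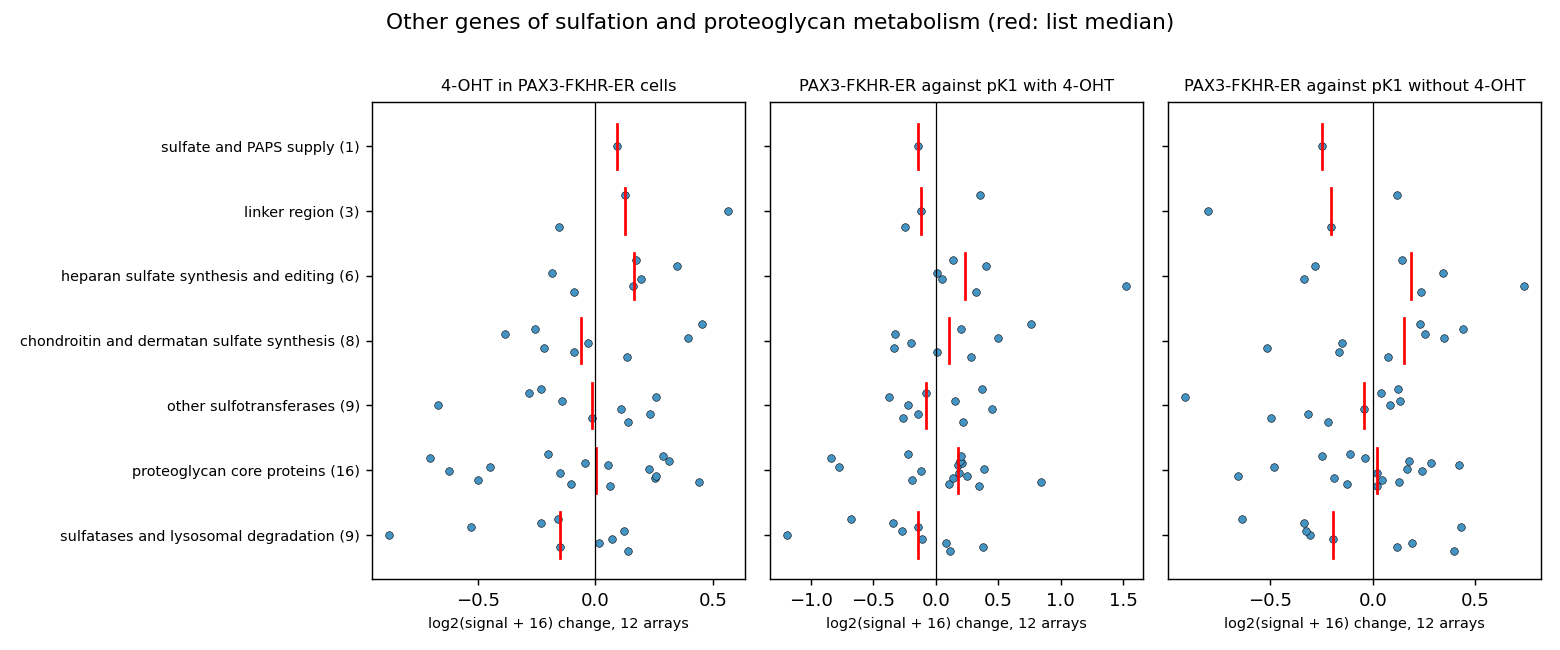
Change in log2(signal + 16) over 12 arrays (horizontal axis) of the 52 pathway genes past the signal filter, by list with the number of genes in parentheses, for 4-OHT in PAX3-FKHR-ER cells and for PAX3-FKHR-ER against pK1 with and without 4-OHT. Points are genes and red lines are list medians, which lie between -0.25 and 0.23 in these panels, and EXTL3 is the point at 1.52 in the middle panel.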

How the data were processed

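Total RNA from 12 cultures was read on Affymetrix U133A arrays, 1 per sample. The authors deposited a table of 1 signal per probe set and array, an intensity on a linear scale. The submitters' processing notes name GCOS and MAS5, and versions are not given in the sources used here. The trimmed mean was 150 to 150.1 on every array, as scaling to a target leaves it, so these values cannot show a shift in RNA content per cell. No detection calls were used. Of 22283 probe sets 68 controls were left out, and 19065 had 1 symbol.

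Values were taken as log2(signal + 16). Probe sets with a mean signal of 36.7 or less, the lowest 40%, were left out, which left 13329. The median signal was 50.4 to 62.8 over the arrays, and their number limits the precision. Means of the 4 groups were fitted to 12 arrays with limma 3.58.1 in R 4.3.3 (eBayes with trend), two-sided. Benjamini-Hochberg adjustment was made within each of 5 comparisons, with a threshold of 0.05. This fit is unpaired, so each SE over 12 arrays includes the differences between replicates. Lists, members, fits and the 23 alternatives were chosen with earlier results of these data known. The fits were tested on simulated data with independent noise and no difference between replicates. That simulation cannot show how they perform on these arrays, where replicate 1 stands apart. Figures used matplotlib 3.10.9. Non-overlap was counted over all 22215 probe sets. Named were all members, and of the pathway lists, by the brightest probe set of a gene, the 3 genes each way with the smallest p in each comparison and any called, also in the paired fit of replicates 2 and 3. For CHST3 and TPST2 the 3 genes of highest r were added.

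Pairing by replicate number was checked by correlating deviations from the group means between same-numbered samples. For 4-OHT r was 0.851, 0.703 and 0.709 in PAX3-FKHR-ER and 0.795, 0.789 and 0.817 in pK1 cells. Between constructs it was 0.573, 0.182 and 0.352 with and 0.685, 0.152 and 0.459 without 4-OHT. Each exceeded 0.1, so the pairing by number was used as a block in alternative fits. Replicate 1 stands apart, and its part in these values was not tested.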

Additional observations from a re-analysis of the deposited data

Results flagged for a closer look

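HS2ST1 probe set 203285_s_at was lower with 4-OHT in all 3 PAX3-FKHR-ER pairs (-0.28, -0.67 and -0.25) and higher in all 3 pK1 pairs (0.06, 0.34 and 0.04), a difference of the changes of -0.54. In limma over all probe sets this difference was not called over 12 arrays, with or without the block, nor in the pairs of replicates 2 and 3, and no p is given because the gene was chosen on these arrays. CSGALNACT2, which starts chondroitin chains and is not among the 9 genes, was likewise lower in all 3 PAX3-FKHR-ER pairs and higher in all 3 pK1 pairs, with a difference of the changes of -0.58 ± 0.38 SE (limma adjusted p = 1). It read 113, 52.7 and 59.9 with and 117, 79 and 102 without 4-OHT in PAX3-FKHR-ER cells, and 116, 72.9 and 97.3 with and 91.5, 71.7 and 77.1 without it in pK1 cells.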

How the results depend on the processing

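The limma count over 12 arrays was 0 in each of the 5 comparisons, and 0 with each array left out in turn, with 1 or 64 added before the log, with no filter or the 60% filter, with quantile or equal-median scaling, without the intensity trend and with the groups of the comparison alone. The replicate block on 12 arrays also gave 0 in all 5, with 634 to 981 probe sets at an unadjusted p under 0.05. Replicates 2 and 3 gave 1 for the constructs without and 13 with 4-OHT. With the replicate block they gave 186 for 4-OHT in PAX3-FKHR-ER cells, 7 for the difference of the changes, 1 for the constructs without and 21 with 4-OHT. The cause was not tested. Counts of the 18 member probe sets without overlap were compared under settings chosen after seeing the data. Without replicate 1, where fewer arrays make non-overlap easier, they were 10 instead of 2 for 4-OHT in PAX3-FKHR-ER cells, 2 instead of 0 in pK1 cells, 6 instead of 2 for the difference, 13 instead of 9 for the constructs without and 9 instead of 4 with 4-OHT. Setting each array to the same median gave 1 in pK1 cells. With 1 array left out the counts ranged over 2 to 6, 0 to 3, 2 to 6, 9 to 11 and 4 to 7 in that order. The count for 4-OHT in PAX3-FKHR-ER cells was 6 without either PAX3-FKHR-ER array of replicate 1, and that for the constructs with 4-OHT was 7 without either replicate 1 array with 4-OHT. In pK1 cells it was 3 without pK1 with 4-OHT replicate 3, 2 without its replicate 2 or without pK1 without 4-OHT replicate 1, and 1 without the replicate 2 array without 4-OHT. For the difference it was 4 to 6 without any array but the PAX3-FKHR-ER arrays of replicate 2. Of 2052 member values under the 23 alternatives, 139 had the other sign, and 0 of 753 did among the 33 whose size over 12 arrays was 0.4 or more. The filters, the intensity trend, the groups of the comparison alone and the replicate block cannot alter a log2 change in these balanced groups. Replicates 2 and 3 enter with the same values with and without the block. Values of 0.4 or more were also picked on these arrays, so nothing is read from the 0. CHST3 32094_at with 4-OHT in PAX3-FKHR-ER cells was at 0.05 without PAX3-FKHR-ER with 4-OHT replicate 1. Low signal over background limits the dim probe sets, CHST3 209834_at among them.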
